A study of Mus musculus with 217 samples.

Results

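The genes described here encode the collagen chains that make up the fibrils of cartilage: Col2a1 for collagen II, Col9a1, Col9a2 and Col9a3 for collagen IX, and Col11a1 and Col11a2 for collagen XI. They were taken by name, and all 6 of them were present among the 9739 genes of the deposited table. The cells were wild type, of the C57/BL strain, and were isolated at postnatal day 7 from growth plates of the tibia; each of 217 libraries holds the polyA RNA of a single cell. The labels put all cells in 1 group and name no animal, so they count as 1 sample, and no test or p-value was computed: every SD below is a spread over cells. Each column carries its own cell name, but some columns correlated with each other at r above 0.95; these were taken as repeats of one cell, an inference from the values, and averaged, and 1 mixed column was left out. What remained is called a profile. The profiles were divided by Acan, the gene of the cartilage proteoglycan aggrecan: 11 profiles, 5.88% of all, lay below 5 on the deposited log2 scale, and the rest, 94.1%, at 5 or above. No profile lay between 2.91 and 6.67, the values nearest to the limit on either side.

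Cartilage fibrils are copolymers of these collagens. Collagen II forms the bulk of the fibril, collagen XI lies inside it and limits its width, and collagen IX sits on its surface, where it is crosslinked to collagen II and reaches out to the surrounding matrix. A collagen IX molecule takes its chains from Col9a1, Col9a2 and Col9a3, while collagen XI of cartilage takes them from Col11a1, Col11a2 and a product of Col2a1, so that the genes of a molecule have to be expressed in the same cell. The transcription factor Sox9, with Sox5 and Sox6, drives these genes in chondrocytes, and Col10a1, which encodes collagen X, marks chondrocytes that have become hypertrophic.

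In mm10 (GRCm38, GENCODE vM21 annotation) the genes lie on different chromosomes. Col2a1 (ENSMUSG00000022483.17) spans chr15:97975602-98004695 on the minus strand, and the others lie on the plus strand. Col9a1 (ENSMUSG00000026147.16) spans chr1:24177610-24252684, Col9a2 (ENSMUSG00000028626.5) chr4:121039385-121055322 and Col9a3 (ENSMUSG00000027570.15) chr2:180597790-180622189. Col11a1 (ENSMUSG00000027966.20) spans chr3:114030540-114220718 and Col11a2 (ENSMUSG00000024330.17) chr17:34039437-34066685. They are genes of many short exons: the annotated transcripts used here had between 32 exons (Col9a2) and 67 exons (Col11a1). Their transcripts ran from 2924 bases (Col9a2) to 7667 bases (Col11a1), and their GC content was lowest in Col11a1 and highest in Col11a2, at 62.9%.

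The promoters are shown because most of these genes varied together from cell to cell. RefSeq promoters (build GRCm38.p6, 250 bases before to 50 bases after the start, plus strand) were at hand for 4 of the 6 genes, Col9a1, Col9a2, Col11a1 and Col11a2, and Col9a1 has a pair of them, since it has an upstream start, known as the one used in cartilage, and a downstream start. Capitals mark matches, on either strand, to a SOX-type pattern (AA, AT, TA or TT followed by CAAAG or CAATG), to CCAAT, to the GC box GGGCGG and to TATAAA. In the windows printed, no match overlapped a match to another motif.
Col9a1, upstream start, chr1:24177360-24177659: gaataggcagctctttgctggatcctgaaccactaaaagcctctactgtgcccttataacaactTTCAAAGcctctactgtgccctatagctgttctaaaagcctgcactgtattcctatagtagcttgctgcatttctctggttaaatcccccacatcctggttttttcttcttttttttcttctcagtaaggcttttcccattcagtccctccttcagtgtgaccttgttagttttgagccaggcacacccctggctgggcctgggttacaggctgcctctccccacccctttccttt
Col9a1, downstream start, chr1:24194953-24195252: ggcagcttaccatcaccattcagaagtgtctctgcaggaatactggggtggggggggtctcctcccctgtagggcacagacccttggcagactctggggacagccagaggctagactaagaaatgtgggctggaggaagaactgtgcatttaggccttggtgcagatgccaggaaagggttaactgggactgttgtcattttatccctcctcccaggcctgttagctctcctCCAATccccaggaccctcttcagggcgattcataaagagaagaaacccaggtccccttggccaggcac
Col9a2, chr4:121039316-121039615: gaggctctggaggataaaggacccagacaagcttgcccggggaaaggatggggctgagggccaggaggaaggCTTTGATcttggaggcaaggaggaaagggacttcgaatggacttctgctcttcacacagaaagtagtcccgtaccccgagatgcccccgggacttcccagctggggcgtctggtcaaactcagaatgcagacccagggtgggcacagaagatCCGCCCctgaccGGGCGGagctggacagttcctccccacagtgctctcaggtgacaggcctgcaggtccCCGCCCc
Col11a1, chr3:114030290-114030589: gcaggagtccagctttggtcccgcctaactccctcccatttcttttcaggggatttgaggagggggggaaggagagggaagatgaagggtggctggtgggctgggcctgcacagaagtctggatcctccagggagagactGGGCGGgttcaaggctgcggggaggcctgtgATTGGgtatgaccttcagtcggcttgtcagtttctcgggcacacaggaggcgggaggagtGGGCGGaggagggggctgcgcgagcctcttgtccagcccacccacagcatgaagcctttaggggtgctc
Col11a2, chr17:34038888-34039187: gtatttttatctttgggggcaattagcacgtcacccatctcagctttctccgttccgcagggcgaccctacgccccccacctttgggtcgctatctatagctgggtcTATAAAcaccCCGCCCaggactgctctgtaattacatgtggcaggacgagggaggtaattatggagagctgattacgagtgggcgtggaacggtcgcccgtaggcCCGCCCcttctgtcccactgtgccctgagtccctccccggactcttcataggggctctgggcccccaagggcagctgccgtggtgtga
The upstream Col9a1 promoter held 1 SOX-type match, and no match to the other motifs. Its downstream promoter held 1 CCAAT, 18 bases before the start. The Col9a2 promoter held 1 SOX-type match on the minus strand and 3 GC boxes, of which 2 lay 26 and 14 bases before the start. Those of Col11a1 and Col11a2 held 2 GC boxes each, Col11a1 also 1 CCAAT on the minus strand and Col11a2 also 1 TATAAA. None of these motifs is rare: among 32851 mouse promoters of the same 300 bases, 24.6% held the SOX-type pattern, 37.4% CCAAT, 35.7% GGGCGG and 13.6% TATAAA. A match describes the letters of the window and is not a binding site.

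The genes of collagens IX and XI were present in essentially every profile with Acan of at least 5, and Col2a1 was the exception. Among the 11 profiles with Acan below 5, all 5 of the genes Col9a1, Col9a2, Col9a3, Col11a1 and Col11a2 were detected (a value of at least 1) in 1 profile, 2 of them in 5 profiles, 1 in 3 profiles and none in 2 profiles. With Acan of at least 5, all 5 genes were detected in every profile but 1, which had 3 of them. Levels are not compared from gene to gene, because the deposited values were not found to be scaled by length: the log2 of the smallest value above 0 had a slope of -0.36 on log2 length across 3647 genes, where a unit per length would give -1.

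Col2a1, the gene of the main fibril collagen, had a lowest value of 0, a median of 0 and a highest value of 1.96 in profiles with Acan below 5, and a lowest of 0, a median of 0 and a highest of 3.14 in profiles with Acan of at least 5. Both groups were therefore low and overlapped. It was detected in 1 of 11 profiles with Acan below 5 and in 37 profiles with Acan of at least 5, a share of 21.02% (95% exact Clopper-Pearson interval 15.3 to 27.8%, which covers counting error only). It was listed at 0 in 58.5% of the profiles with Acan of at least 5. These low values came back in repeated columns of the same cell: of 23 cells with repeats, 16 had Col2a1 detected in none of their columns, 5 in all of them and 2 in some only. Sox9, which drives the gene, was detected in every profile with Acan of at least 5, with values from 2.34 to 11.69 and a median of 8.98. An entry of 0 can be a failed estimate, the software that made the values is not given in the sources used here, and its part in the low Col2a1 values was not tested.

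Col9a1, which encodes the collagen IX chain with the large amino-terminal domain, ran from 0 over a median of 0 to 3.15 in profiles with Acan below 5, and from 8.48 over a median of 10.30 to 13.10 in profiles with Acan of at least 5. The groups did not overlap. Col9a2 ran from 0 over 0 to 3.97 in profiles with Acan below 5, and from 0 over 10.09 to 12.13 in the others, which overlapped only through 1 profile listed at 0 in the second group. Col9a3 ran from 0 over 0 to 2.13 below the limit, and from 6.14 over 8.98 to 10.48 above it, again with no overlap. All collagen IX genes were thus low wherever Acan was low. Each was detected in at most 2 of the 11 profiles with Acan below 5 and in every profile with Acan of at least 5, except that Col9a2 was missing from 1.

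The collagen XI genes were also present in profiles with little Acan. Col11a1 ran from 0 over a median of 8.50 to 10.09 in profiles with Acan below 5, and from 8.27 over 11.23 to 12.58 in profiles with Acan of at least 5, so that the groups overlapped between 8.27 and 10.09. It was detected in 8 of the 11 profiles with Acan below 5 (72.7%, interval 39.03 to 93.98%) and in all of the others. Col11a2 ran from 0 over 0.15 to 4.15 below the limit and from 0 over 5.68 to 6.98 above it, with detection in 5 of the 11 profiles (45.5%, 16.7 to 76.6%) and in all but 1 of the others. The medians were lower below the limit for both genes, and the ranges of both overlapped.

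**Figure D1:**
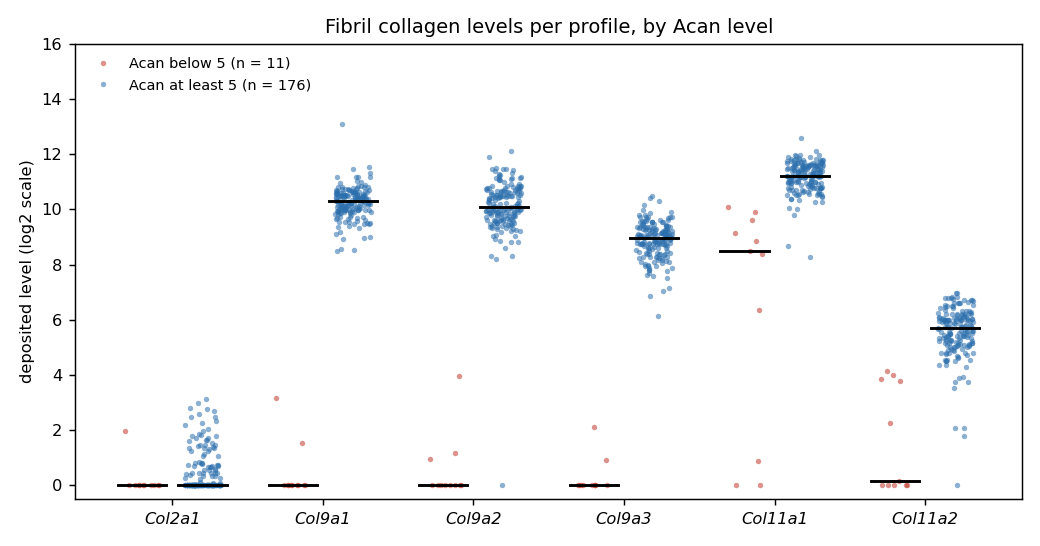
Deposited log2 level of each fibril collagen gene in every profile, with the 11 profiles with Acan below 5 on the left of each pair and those with Acan of at least 5 on the right; black bars are medians. The collagen IX genes separate the groups almost completely, Col11a1 reaches 8.40 or more in 7 of the 11 profiles with Acan below 5, and Col2a1 reaches at most 3.14.

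On the mean, 5 of the 6 genes were lower by at least 1 in profiles with Acan below 5 than in profiles with Acan of at least 5, and 16.8% of all 9739 genes were. The median over all genes was a difference of -0.16. Differences are of log2(value + 1) and understate the change of low genes. Col9a1 averaged 0.43 ± 1.01 (SD, n = 11) with Acan below 5 and 10.25 ± 0.57 (SD) with Acan of at least 5, a difference of -9.82. Col9a2 averaged 0.55 ± 1.21 and 10.10 ± 1.04 in the same groups and order, a difference of -9.54, and Col9a3 0.27 ± 0.67 and 8.88 ± 0.66, a difference of -8.61. The differences of the collagen XI genes were smaller, at -4.67 for Col11a1 (6.52 ± 4.13 against 11.19 ± 0.55) and -3.88 for Col11a2 (1.65 ± 1.93 against 5.53 ± 0.94). Col2a1 differed by -0.31. Sox9 differed by -6.26, at 2.38 ± 2.46 with Acan below 5 and 8.64 ± 1.51 with Acan of at least 5. Fewer genes were detected in profiles with Acan below 5 (median 2757, range 2187 to 4118) than in the others (3463.5, range 1326 to 4994), and the part of that in the differences was not tested.

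Within the 11 profiles with Acan below 5, Col11a1 went with the genes of bone collagen. A division at a Col1a1 level of 10, chosen after the values were seen and described without a test, gave 7 profiles in which Col1a1, a chain of bone collagen I, was between 11.50 and 13.28 and Ibsp, which encodes bone sialoprotein, between 12.74 and 14.92. In these 7 profiles Col11a1 ran from 8.40 over 9.15 to 10.09 and was detected in each. Col11a2 ran from 0 over 3.76 to 4.15 there and was detected in 5 of 7, while Col9a2 was detected in 2 and Col2a1, Col9a1 and Col9a3 in 1 each. Col5a2, a collagen V chain with which the Col11a1 chain has been found assembled in other tissues, ran from 8.49 over 9.45 to 10.30 in the same profiles. The other 4 profiles had Col11a1 at 0, 0, 0.88 and 6.36, and Col11a2 listed at 0 in each. The profile with the highest Acan of the 11, at 2.91, was the one with all 5 genes detected: Col9a1 at 3.15, Col9a2 at 3.97, Col9a3 at 2.13, Col11a1 at 10.09 and Col11a2 at 3.99.

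**Figure D2:**
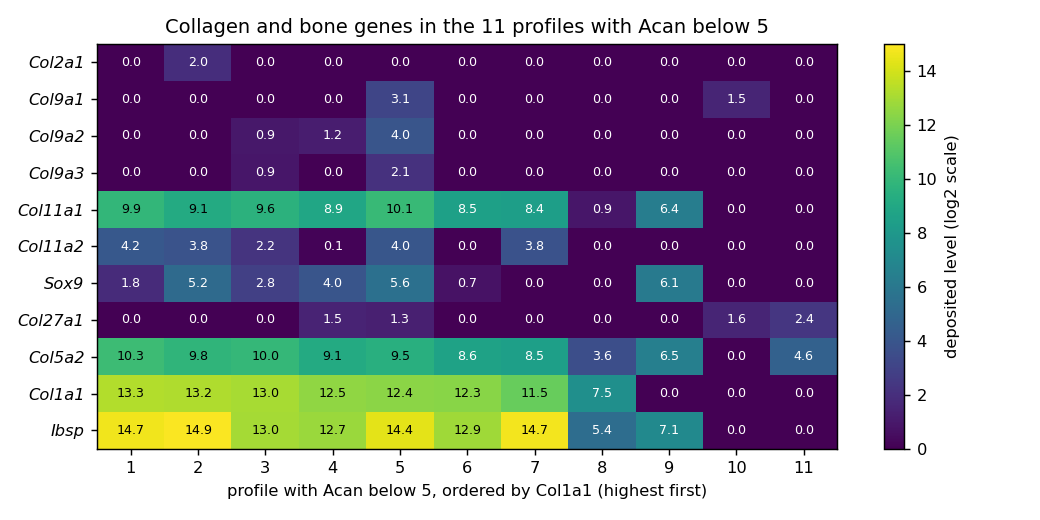
Deposited log2 level of the fibril collagen genes, Sox9 and genes of other fibrillar collagens and bone (rows) in each of the 11 profiles with Acan below 5 (columns, ordered by Col1a1 from high to low). Col11a1 and Col5a2 are high in the 7 profiles where Col1a1 is between 11.50 and 13.28, and the collagen IX genes are at or near 0 in nearly all of them.

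Of the marker lists of other cell types, only the osteoblast and perichondrial lists had a higher median sum with Acan below 5. The summed back-transformed level of the osteoblast list (10 of its 11 genes measured) ran from 3248 over a median of 53816 to 94499 with Acan below 5 and from 1425 over 5685 to 45432 with Acan of at least 5. The lowest of these sums with Acan below 5 came from a profile with Sparc at 11.67 and with Col1a1, Col1a2 and Ibsp at 0. Sparc, a gene of this list, was detected in every profile, so the sums are not particular to osteoblasts. It averaged 13.57 with Acan below 5 and 12.38 with Acan of at least 5. For the perichondrial and fibroblast list (7 of 9 measured) the sums ran from 0 over 230 to 660 and from 0 over 33.5 to 541 in that order, with Tnn at 0 in all 11 profiles with Acan below 5. Pecam1, the only endothelial marker of 6 measured, gave a median of 0 in both groups and at most 20.6 and 15.7, and was highest in a pair of the 4 profiles with low Col1a1, at 4.43 and 3.38 on the log2 scale. The macrophage and osteoclast list (4 of 7 measured) gave 0 over 39.5 to 362 and 0 over 55.01 to 612, with Lyz2 and Csf1r at 0 in all 11 profiles, and 1 of these had Cd68 at 8.44. None of the 8 blood markers was among the measured genes. Col1a1 itself was detected in 24 of the profiles with Acan of at least 5, where it reached 10.64. The part of other cell types in the differences was not tested.

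Among profiles with Acan of at least 5, the spread of the genes was larger than the difference between repeated columns of one cell, but by unlike amounts. Col9a2 had an SD of 1.04 over profiles and 0.31 between repeats, a ratio of 3.38, and Col9a3 had 0.66 and 0.27, a ratio of 2.47. Col9a1 had 0.57 and 0.23, a ratio of 2.46. Repeats therefore held 8.75% of the variance of Col9a2, 16.5% of that of Col9a1 and 16.4% of that of Col9a3. The SD of Col9a2 over profiles includes 1 profile listed at 0, beside a median of 10.09. Its ratio and share rest partly on that profile and were not computed without it. For collagen XI the share was higher: Col11a1 had an SD of 0.55 over profiles and 0.38 between repeats, so that repeats held 48.2% of its variance, and Col11a2 had 0.94 and 0.61, or 41.3%. Col10a1, by contrast, had an SD of 4.34 over profiles and 0.61 between repeats, or 2.0%.

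The genes of collagens IX and XI varied together across the profiles with Acan of at least 5, and the closest pair joined a gene of collagen IX with a gene of collagen XI. All coefficients below are across cells of 1 sample that share a kit for library preparation and vary in the number of genes detected, and are given as a description. Of the 10 pairs among Col9a1, Col9a2, Col9a3, Col11a1 and Col11a2, 6 had a Pearson's r of at least 0.3, while 0.644% of all pairs of these genes with any other gene had. The 10 pairs had a median r of 0.44 and ran from 0.22 to 0.66. With each column scaled to the same upper quartile all 10 pairs reached 0.3, and Col9a3 with Col11a1 gave 0.49. The share over all pairs is given for the deposited scale only, so this count has no such share beside it. The highest was Col9a1 with Col11a1 (r 0.66, Spearman's rho 0.59), followed by Col9a2 with Col11a2 (0.63 and 0.50), Col9a2 with Col11a1 (0.58 and 0.42) and Col11a1 with Col11a2 (0.56 and 0.43). Col9a1 with Col9a2 gave 0.48 and 0.40. Col9a3 was the gene least related to the rest, with r from 0.22 (Col11a1 and Col11a2) to just under 0.3 (Col9a2), and rho of 0.05 with Col11a1. Col2a1, with most of its entries at 0, had r between -0.05 and 0.07 with each of the other 5 genes. Over profiles with both genes detected, at most 37, r was -0.47 with Col9a2 and -0.21 with Col9a1. There it was -0.14 with Col11a2, -0.10 with Col11a1 and 0.01 with Col9a3.

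The 2 profiles farthest from the median in Col9a2 were the lowest and the highest. The lowest stood apart from all others: it had Col9a2 and Col11a2 listed at 0, with the lowest Col11a1 (8.27) and Col9a1 (8.48) among profiles with Acan of at least 5, beside Acan at 10.27, Col10a1 at 12.23 and the lowest Sox9 of these profiles, at 2.34. The highest, less far from its neighbours in Col9a2 (12.13), also had the highest Col9a1 (13.10) and Col11a1 (12.58), and the fewest genes detected of any profile, 1326. Without these profiles, the median r of the 10 pairs was 0.40 in place of 0.44, Col9a2 with Col11a1 gave 0.44, and Col9a1 with Col11a1 gave 0.61.

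Repeated columns of the same cell also differed in a common direction. Across 52 columns of 23 cells, taken as deviations from the mean of each cell, Col9a1 with Col11a1 had r 0.92 and Col11a1 with Col11a2 0.76, while Col9a3 had r -0.79 with Col11a1 and -0.65 with Col9a1. Col9a2 was nearly unrelated to Col9a1 (r -0.04) and Col11a1 (r -0.03) there. The first component of these deviations, over 2752 genes detected in at least 50% of profiles with Acan of at least 5, held 40.8% of their variance and the second 5.89%. Its weights were higher for genes of low GC content (rho -0.67 across 2584 genes with a transcript) and of long transcripts (rho 0.43). Col11a2 lay at percentile 96.4 of the weights, Col11a1 at 94.4 and Col9a1 at 86.4, with Col9a3 at 29.4. Scored on the profiles, this component had r -0.64 with the number of genes detected. Given that score, the median r of the 10 pairs was 0.46 (0.20 to 0.64), and Col9a1 with Col11a1 gave 0.64. Col9a2 thus had r 0.48 with Col9a1 and 0.58 with Col11a1 across cells, beside values near 0 between repeats, whereas Col9a1 and Col11a1 were related across both. Why the columns of one cell differ was not tested.

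**Figure D3:**
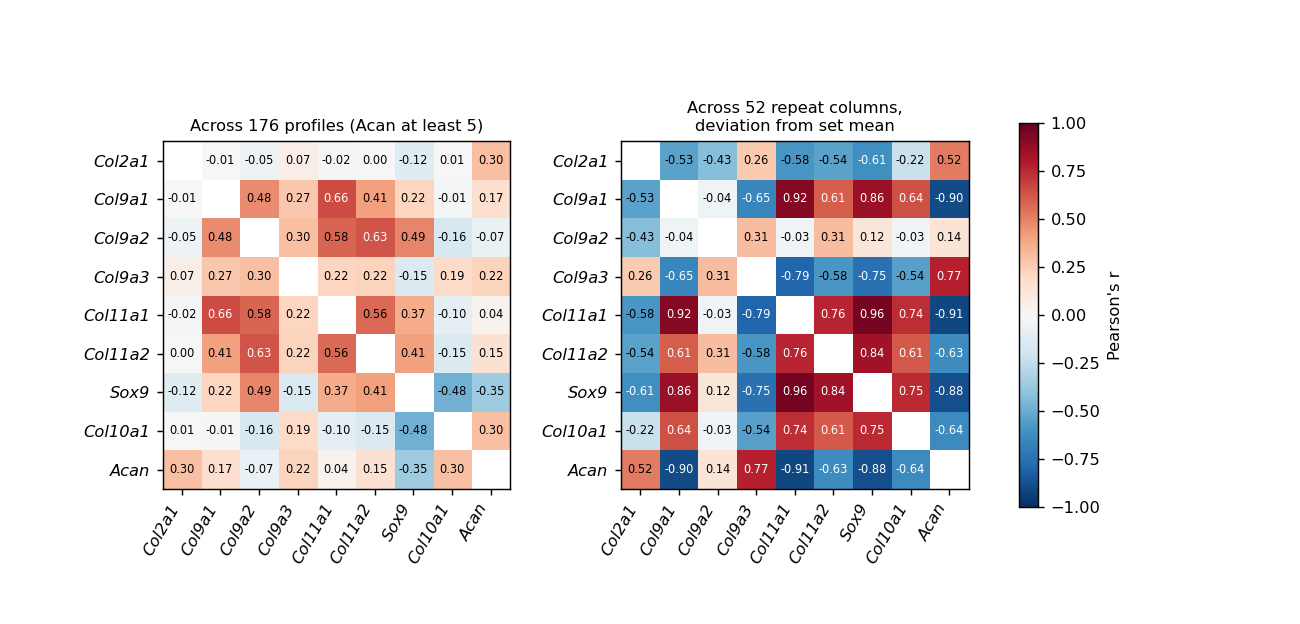
Pearson's r between the fibril collagen genes, Sox9, Col10a1 and Acan, across profiles with Acan of at least 5 (left) and across deviations of 52 repeated columns from their cell's mean (right); colour and printed number both give r. The block of collagen IX and XI genes runs from 0.22 to 0.66 across profiles, whereas across repeats it runs from -0.79 to 0.92, with Col9a3 on the opposite side from Col9a1, Col11a1 and Col11a2.

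Sox9 was related to Col9a2 by either coefficient, and to the collagen XI genes less firmly. With Sox9, 3 of the 5 genes had r of at least 0.3, against 1.71% of 5379 genes: Col9a2 (0.49), Col11a2 (0.41) and Col11a1 (0.37). As Spearman's rho only 1 of them did, Col9a2 at 0.38, with Col11a1 at 0.28 and Col11a2 at 0.27. Col9a1 had r 0.22 and Col9a3 -0.15. Given the score of the repeat component the order was similar, with 0.54 for Col9a2, 0.49 for Col11a2, 0.32 for Col11a1, 0.17 for Col9a1 and -0.03 for Col9a3. Between repeats of one cell, Sox9 had r 0.96 with Col11a1, 0.86 with Col9a1 and 0.84 with Col11a2, but 0.12 with Col9a2. With Col10a1, none of the 5 genes reached 0.3 in either direction, where 2.79% of genes had r of at least 0.3 and 0.632% of at most -0.3. The values were -0.16 for Col9a2, -0.15 for Col11a2, -0.10 for Col11a1, -0.01 for Col9a1 and 0.19 for Col9a3. Some settings passed the limit: Col9a2 had r -0.43 over profiles with both genes detected, and Col9a3 had 0.32 with upper-quartile scaling. Sox9 and Col10a1 had r -0.48 with each other. Acan was weakly related to the 5 genes, with r from -0.07 (Col9a2) to 0.22 (Col9a3). With Col2a1, Acan had r 0.30, and 0.21 given the score of the repeat component.

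Among the 11 profiles with Acan below 5, r was 0.66 for Col11a1 with Col11a2 (rho 0.85) and 0.57 for Col11a1 with Sox9. It was 0.94 for Col9a2 with Col9a3 and 0.81 for Col9a1 with Col9a2, where 1 profile carried all of these genes and most had them at 0.

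The same relations can be given as the spread of the log2 difference of a pair of genes, which follows from r and the SDs and is no further evidence. Across profiles with Acan of at least 5, the difference of Col9a1 and Col9a2, genes of chains of one molecule, had an SD of 0.92, and 0.39 between repeats. Col11a1 and Col11a2 gave 0.78, and 0.40 between repeats. The narrowest was between genes of different collagens, Col9a1 and Col11a1, with 0.46, and 0.19 between repeats. With Col9a3 the SD was 0.74 for Col9a1 and 1.05 for Col9a2. Without the 2 profiles farthest in Col9a2, Col9a1 and Col9a2 gave 0.67, less than Col11a1 and Col11a2 with 0.75. Col9a1 and Col11a1 stayed the narrowest, with 0.44. With Col9a3 the SD was then 0.74 for Col9a1 and 0.79 for Col9a2.

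The fibril collagen genes were then set against genes that mark maturation. Profiles with Acan of at least 5 were put in 4 classes by genes other than the members: 29 with none of Col10a1, Ihh and Ibsp detected, 69 with Col10a1 but neither Ihh nor Ibsp, 41 with Ihh but not Ibsp, and 37 with Ibsp. Col10a1 was not detected in 7 of the 41 and 3 of the 37. Ihh encodes Indian hedgehog, a signal of prehypertrophic chondrocytes. The classes are ranges of these genes' values in 1 sample. Against the first class, none of the 6 genes differed by 1 or more in any class, where 5.03% of all genes were higher and 0.955% lower by at least 1 with Col10a1 alone, 7.92% and 0.719% with Ihh, and 15.3% and 1.62% with Ibsp. With shares that low over all genes, a count of 0 among 6 is not a result about these genes.

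Col9a2 showed the widest course. It averaged 9.98 ± 0.62 in the first class, 10.49 ± 0.69 with Col10a1 alone, 10.11 ± 0.59 with Ihh and 9.42 ± 1.70 with Ibsp (SD over 29, 69, 41 and 37 profiles), with medians of 9.88, 10.52, 10.23 and 9.59. The last class holds the profile listed at 0, and without the 2 farthest profiles its difference from the first class was -0.30 in place of -0.56. Col9a1 had medians of 10.17, 10.41, 10.36 and 10.05 in the same order (SD 0.59, 0.56, 0.47 and 0.55). Col11a1 averaged 11.14 ± 0.47, 11.33 ± 0.54, 11.27 ± 0.46 and 10.88 ± 0.60. Col11a2 averaged 5.57 ± 0.64, 5.71 ± 0.90, 5.44 ± 0.91 and 5.27 ± 1.18. As deposited, the means of these 4 genes were highest with Col10a1 alone and lowest with Ibsp, and the gap between those classes was smaller than 1 SD over cells except for Col9a2. Col9a3 had another order, at 8.72 ± 0.78, 8.90 ± 0.68, 8.84 ± 0.57 and 9.02 ± 0.60. Col2a1 was detected in 7 of 29, 12 of 69, 5 of 41 and 13 of 37 profiles. Sox9 averaged 9.57, 8.79, 8.96 and 7.29, a wider course than any of the collagens. The score of the repeat component also fell, averaging 0.62, 0.17, 0.05 and -0.85 in the same classes. Across profiles it had r 0.40 with Sox9, 0.21 with Col11a1, 0.17 with Col9a1, -0.01 with Col9a2, -0.09 with Col11a2 and -0.30 with Col9a3. With the score regressed out, the median difference of the 6 genes with Col10a1 alone was 0.17 in place of 0.18. In each class this median stayed within its tolerance of 1 SD over profiles. That tolerance is wider than the median difference with Ibsp as deposited, -0.15, so it does not separate the lower values there from the score. The part of the score in the course of Sox9 was not tested.

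The direction in the Ibsp class depends on what the values are set against. More genes were detected there (median 3682, against 2954 in the first class), and the median of 5380 genes detected in at least 20% of profiles was higher by 0.51 in the Ibsp class than in the first. Scaling each column to the same upper quartile moved that median to 0.75 and turned round the differences of Col9a1 (-0.05 as deposited, 0.44 rescaled), Col11a1 (-0.25 and 0.24) and Col11a2 (-0.30 and 0.20). Relative to the median gene, both scales put Col9a1 (-0.56 as deposited, -0.30 rescaled), Col9a2 (-1.07 and -0.79), Col11a1 (-0.76 and -0.50) and Col11a2 (-0.81 and -0.54) lower. Col9a3 was -0.21 as deposited and 0.05 rescaled. The Ibsp class includes the profile with Col9a2 and Col11a2 listed at 0, and its part in these values was not tested.

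**Figure D4:**
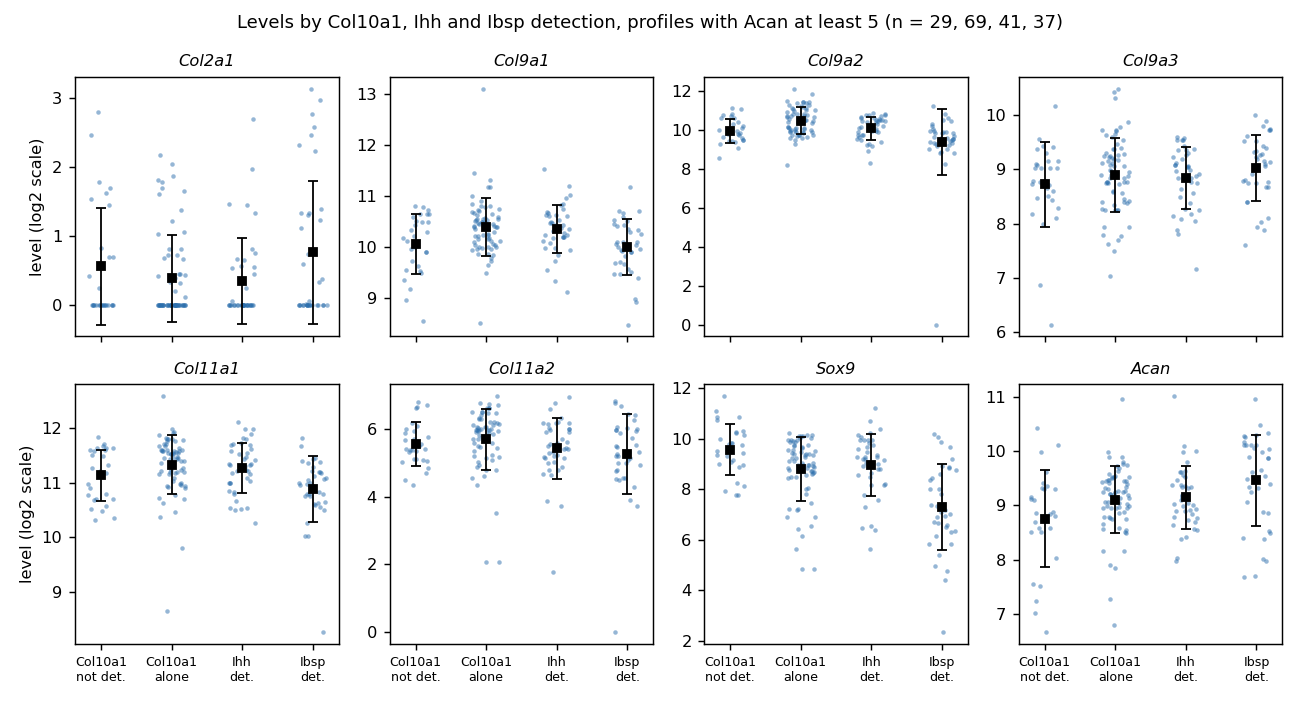
Deposited log2 level of the 6 fibril collagen genes, Sox9 and Acan in profiles with Acan of at least 5, by class (29, 69, 41 and 37 profiles from left to right); squares and bars are the mean and SD over profiles, and each panel has its own axis. The first class has none of Col10a1, Ihh and Ibsp detected. Col9a2 averages 10.49 with Col10a1 alone and 9.42 with Ibsp, and Sox9 averages 9.57 in the first class and 7.29 in the last.

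Other markers divided the genes little. In the 15 profiles with Mki67, a marker of cycling cells, Col2a1 was higher, at 1.09 ± 1.09 with Mki67 and 0.43 ± 0.72 without it, and Col11a1 was lower, at 10.83 ± 0.45 and 11.23 ± 0.54. The score of the repeat component averaged -0.48 and 0.04 in these groups, and its part in the differences was not tested. Col2a1 was listed at 0 in 58.5% of all profiles with Acan of at least 5, so its means rest on low values. In the 66 profiles with Sfrp5, which encodes a secreted WNT antagonist, Col9a3 averaged 8.71 ± 0.71, and 8.98 ± 0.61 in the 110 without. In profiles with F3, which encodes tissue factor, Col9a2 averaged 10.29 ± 0.67, and 9.82 ± 1.36 in the 74 without. The wider SD without F3 includes the 1 profile with Col9a2 listed at 0, whose part in this difference was not tested.

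The gene most like the set was another fibrillar collagen of cartilage, Col27a1. Likeness was Spearman's rho across profiles with Acan of at least 5, taken with the mean z of Col9a1, Col9a2, Col9a3, Col11a1 and Col11a2, for 5374 other genes detected in at least 20% of the profiles. Col27a1 had rho 0.56, and 0.56 given the score of the repeat component, with r 0.77 between repeats of one cell. It ran from 0 over a median of 0 to 2.35 in profiles with Acan below 5 and from 0.77 over 7.50 to 9.35 in profiles with Acan of at least 5, where it was not detected in 2. It was among the 5 most alike genes for Col9a1 (rho 0.46), Col9a2 (0.49) and Col11a1 (0.54), but had r 0.18 with Col9a3. Next came Malat1, a nuclear noncoding RNA, at 0.47 and Tmem258, the gene of an oligosaccharyltransferase subunit, at 0.46, then Luc7l2 (0.41), Ssr1 (0.39), which encodes a subunit of the translocon-associated complex of the endoplasmic reticulum, Lect1 (0.38), Omd (0.38), Scrg1 (0.38), Matn3 (0.37) and Btg3 (0.37). In all, 0.391% of genes had rho of at least 0.3 and 0.112% of at most -0.3. The lowest were Hsp90ab1 (-0.38), Rpl19 (-0.35), Hspa8 (-0.35), Cct5 (-0.32), Anxa3 (-0.31), Gabarapl1 (-0.30), Eef1a1 (-0.30), Eif3m (-0.30), Oaz2 (-0.29) and Eif2b5 (-0.29). Between repeats of one cell, r with the mean z was 0.93 for Malat1, 0.83 for Ssr1, 0.79 for Matn3, 0.73 for Btg3 and 0.49 for Omd. It was 0.26 for Tmem258, 0.04 for Luc7l2, -0.04 for Lect1 and -0.69 for Scrg1. Of the lowest, Hsp90ab1, Rpl19, Hspa8, Cct5 and Eef1a1 had r from -0.83 to -0.79, and the others from -0.46 to -0.02.

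Some of the genes nearest to one member were shared with another. Col9a1 and Col11a1 shared Matn3 (rho 0.45 and 0.46), the gene of a matrilin that bridges collagen fibrils and proteoglycans, Hapln1 (0.44 and 0.52), the gene of the link protein of aggrecan, and Ssr1 (0.40 and 0.51). The fifth was Fam135a for Col9a1 (0.37) and Btg3 for Col11a1 (0.40). Between repeats of one cell, r with Col9a1 and Col11a1 was 0.81 and 0.95 for Matn3, 0.91 and 0.97 for Hapln1, and 0.92 and 0.86 for Ssr1. Given the score of the repeat component, rho was 0.44 and 0.45 for Matn3, 0.41 and 0.48 for Hapln1, and 0.37 and 0.44 for Ssr1. Col9a2 and Col11a2 shared Malat1 (0.53 and 0.37) and Lect1 (0.48 and 0.34), which encodes chondromodulin. Col9a2 also had Lmna (0.51) and Rps25 (0.46), and Col11a2 Tmem258 (0.37), Cnnm4 (0.35) and Ssr1 (0.33). Col9a3 shared none of them: its most alike genes were Sparc (0.47), Ppib (0.42), a prolyl isomerase of collagen folding, Comp (0.41), 3110079O15Rik (0.41) and Mia (0.38). Given the score of the repeat component these were 0.36, 0.31, 0.25, 0.23 and 0.26.

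Of the gene lists described, the partners of the fibril in the matrix had the highest median rho with the set. Of the fibril partners and cartilage matrix genes (24 of 30 measured, 23 with a rho), 21 had rho above 0, as did 44.6% of all genes, and 4 at least 0.3, the highest being Lect1, Scrg1, Matn3 and Hapln1 (0.34), with a median of 0.15 beside -0.01 over all genes. The median was 0.08 for 18 genes of collagen folding and modification, -0.03 for 11 of procollagen export, 0.00 for 4 of propeptide processing and crosslinking, 0.01 for 4 collagen receptors, -0.01 for 11 of collagen degradation and 0.02 for 11 regulators of cartilage collagens, and none of these genes reached 0.3. Ppib (0.26) and Leprel2 (0.22) were the highest of the folding genes, and Sox9 (0.28) of the regulators. The 5 other fibrillar collagens had a median of 0.11, with Col27a1 the only one over 0.3, and 7 other collagens of cartilage and perichondrium had 0.08. The osteoblast list had 0.09 (7 genes) and the perichondrial list 0.11 (5 genes).

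**Figure D5:**
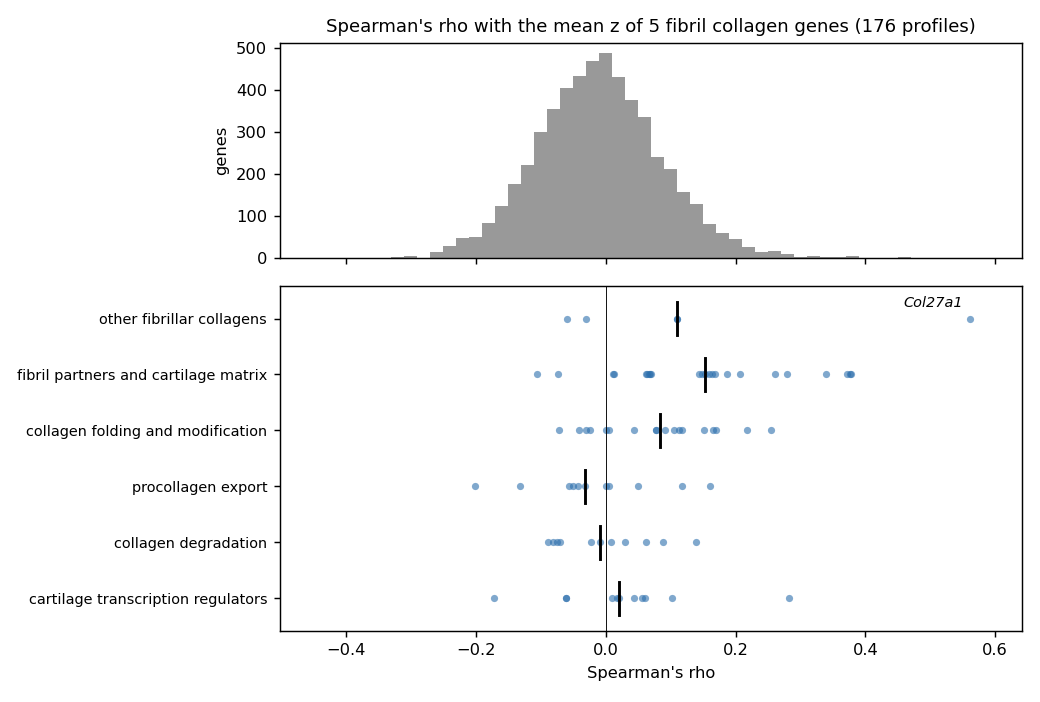
Spearman's rho with the mean z of Col9a1, Col9a2, Col9a3, Col11a1 and Col11a2 across profiles with Acan of at least 5, for 5374 genes (top, histogram) and for the genes of 6 lists (bottom, points; bars are medians). Col27a1 stands at 0.56, and 21 of the 23 fibril partners lie above 0.

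Between the Acan groups, 16.8% of all genes were lower and 10.9% higher by at least 1 with Acan below 5, and the lists are read against these shares. With Acan below 5, 20 of 24 fibril partners were lower by at least 1 and 3 higher, for example Lect1 at 1.97 against 13.28 and Hapln1 at 1.29 against 11.72 in profiles with Acan of at least 5. Acan itself is on this list and among the 20, and its difference was fixed by the division. Of 7 other fibrillar collagens 4 were higher and 1 lower: Col1a1 averaged 8.70 against 0.57, Col1a2 10.55 against 4.48, Col5a2 7.32 against 2.33 and Col5a1 3.61 against 1.25, while Col27a1 averaged 0.61 against 7.32. Of 11 other cartilage and perichondrial collagens 4 were lower and 2 higher, with Col6a1 at 1.19 against 7.61 and Col4a1, a basement membrane collagen, at 4.02 against 0.25.

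Among 21 folding and modification genes 9 were lower and 1 higher. Leprel1, a collagen prolyl 3-hydroxylase, was listed at 0 in all 11 profiles with Acan below 5 and averaged 7.29 in the others. The 1 higher was Hspa5, a general chaperone of the endoplasmic reticulum, at 3.60 against 1.98. Serpinh1, the gene of the collagen chaperone HSP47, averaged 0.63 with Acan below 5 and 0.09 with Acan of at least 5, and was low in both, as Col2a1 was. Of 7 propeptide and crosslinking genes 3 were lower and 4 higher: the enhancer of propeptide cleavage Pcolce averaged 7.88 against 4.34, and its paralog Pcolce2 2.36 against 8.23. Of 15 export genes 4 were lower and 1 higher, of 7 receptors 1 and 3, of 14 degradation genes 2 and 7, with Mmp14 at 4.81 against 1.25, and of 21 regulators 8 and 3. Of the osteoblast list 9 of 10 genes were higher and none lower, and of the perichondrial list 2 of 7 were higher and none lower. None of the macrophage and endothelial genes passed 1 in either direction, and the export genes were near the shares over all genes.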

How the data were processed

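Single-cell libraries were made from polyA RNA with SMARTer chemistry and Nextera XT, per the labels' protocols, and the submitters' processing notes name TopHat and mm10. The authors deposited 1 table of log2 values, 1 column per named cell; the base was taken from the values, and which quantifier, annotation and abundance unit were used is not given in the sources used here. Values ran from 0 to 15.14 and 62.3% were exactly 0, so depth per cell is unknown, and every gene is above 0 in at least 10 columns. An empty row, the only one without a gene name, was dropped.

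Columns with r above 0.95 (23 sets, 52 columns, r of at least 0.96 within sets and at most 0.69 between other columns) were taken as repeats of one cell and averaged, and 1 mixed column was dropped, which gave 187 profiles, 11 with Acan below 5 and 176 with Acan of at least 5. No doublet caller was run. Detection meant a log2 value of at least 1. With 1 sample there was no test, and genes were counted past a difference of 1 on the log2 scale or a coefficient of 0.3. The members, the 9 gene lists and the 5 marker lists were chosen with earlier results of these data known. Named genes are the members, the genes that set the division or a class, for each of 5 members the 5 genes of highest rho, the 10 highest and 10 lowest with their mean z, and up to 4 highest and 2 lowest of a list in rho or difference. Alternatives covered detection, repeats, the mixed column, pseudocount, scaling, the Acan limit and zeros. Leaving out 2 far profiles and correcting for the repeat component were added after the data were seen. The scripts were tested on simulated data. NetworkX 3.6.1 found the repeat sets, SciPy 1.17.1 the intervals, and NumPy 2.4.6 and pandas 2.3.3 the rest, under Python 3.11.15 with matplotlib 3.10.9 for plots.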

Additional observations from a re-analysis of the deposited data

How the results depend on the processing

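All cells are 1 sample without a named animal, so the spread between animals is unknown. No paired analysis was possible because the labels give 1 group and no replicate numbers. Over the planned and added alternatives, the values that answer a comparison stayed within their tolerance (1 SD over profiles for levels and differences, the exact interval for shares, 1/√(n - 3) on Fisher's scale for coefficients) except for 21 that moved past it; none changed sign past a call. Of the single values, 322 stayed and 70 moved. The level of Col2a1 was -1.90 with a pseudocount of 0.1, and its share was 41.5% for any value above 0 and 0% for a back-transformed value of at least 10 (a count of 0 profiles allows up to 1.70%, for counting error only). With the 10% of profiles of fewest genes left out (6 remain with Acan below 5), Col9a2 and Col11a2 were detected in 100%, and the Acan difference of Col11a1 was -3.81. With an Acan limit of 7 (13 profiles below it) the differences were -8.38 for Col9a1, -8.10 for Col9a2, -7.24 for Col9a3 and -3.93 for Col11a1. The median r of the 10 pairs was 0.37 as Spearman's rho and 0.58 with upper-quartile scaling. The count of these pairs at 0.3 or above ran from 6 to 10 over the settings. The median with Sox9 was 0.27 as rho. The count with Sox9 ran from 1 to 4. Shares over all genes to set beside these counts are given for the main setting only. The median with Col10a1 was -0.27 over profiles with both genes detected, 0.12 with upper-quartile scaling and -0.0188 given the repeat component, so its sign depends on the setting. With genes detected in any number of profiles, list medians were 0.0180 for other fibrillar collagens, 0.00795 for other collagens, 0.0124 for the perichondrial list and -0.0447 for the osteoblast list, and the propeptide list gave 0.0841 as Pearson's r. Apart from the settings that add genes or leave out profiles, the cause of these moves was not tested.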
